A study of Mus musculus with 4 samples.

Results

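The genes of the 4 mouse HOX clusters were followed through 5 cell classes of the fetal XX gonad. Every gene of the deposited table whose symbol is Hoxa, Hoxb, Hoxc or Hoxd with a number and nothing more was a member, whatever its level. This gave 37 of 19321 genes, of which 11 belong to HOXA on chromosome 6, 10 to HOXB on chromosome 11, 8 to HOXC on chromosome 15 and 8 to HOXD on chromosome 2. The gonads came from XX embryos of the C57BL/6 strain, with no genetic change or treatment named, at 4 embryonic stages (E11.5, then E12.5, then E13.5 and last E14.5). From each stage 1 droplet library (10x Genomics 3′ chemistry, version 2) was made, and the number of embryos behind each is not given in the sources used here. Throughout, values in a row of 4 follow the order of the stages.

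HOX genes encode homeodomain transcription factors that give cells a position along the head-to-tail axis of the embryo. Within a cluster the genes lie in the order in which they are used along that axis, and genes at the same place in different clusters form paralog groups. Low group numbers act towards the head, and high numbers towards the tail. HOX proteins bind DNA together with cofactors of the PBX and MEIS families, and the clusters are kept on or off by the trithorax and polycomb groups of chromatin proteins. The somatic cells of the gonad arise from mesoderm and from the epithelium that covers it, whereas the germ cells migrate in from the base of the allantois.

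The upstream sequences below stand for 3 of the clusters, with 1 gene each that the comparisons of classes turn on. They are the 250 bases before the start site in RefSeq (GRCm38.p6), read 5′ to 3′ on the strand of the gene, and lie outside every exon of the GENCODE annotation. The 6 short motifs searched on both strands were the TATA box TATAAA, the CCAAT box, the GC box GGGCGG, the nuclear receptor element AGGTCA, the HOX and PBX element TGATTNAT, and the element TTTATNG of posterior HOX and CDX proteins, which can overlap TATAAA. Capitals mark matches.
Hoxa5 at chr6:52204588-52204837, minus strand: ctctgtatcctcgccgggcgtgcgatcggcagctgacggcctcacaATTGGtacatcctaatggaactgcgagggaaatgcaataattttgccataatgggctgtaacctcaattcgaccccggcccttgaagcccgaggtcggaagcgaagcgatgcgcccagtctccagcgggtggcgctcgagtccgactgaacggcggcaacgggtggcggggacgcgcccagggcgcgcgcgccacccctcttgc
Hoxb8 at chr11:96281655-96281904, plus strand: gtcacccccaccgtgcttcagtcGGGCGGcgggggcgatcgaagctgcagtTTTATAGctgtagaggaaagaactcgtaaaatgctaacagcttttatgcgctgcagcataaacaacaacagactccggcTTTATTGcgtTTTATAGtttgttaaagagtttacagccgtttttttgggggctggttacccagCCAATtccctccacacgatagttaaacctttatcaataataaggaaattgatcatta
Hoxd8 at chr2:74704365-74704614, plus strand: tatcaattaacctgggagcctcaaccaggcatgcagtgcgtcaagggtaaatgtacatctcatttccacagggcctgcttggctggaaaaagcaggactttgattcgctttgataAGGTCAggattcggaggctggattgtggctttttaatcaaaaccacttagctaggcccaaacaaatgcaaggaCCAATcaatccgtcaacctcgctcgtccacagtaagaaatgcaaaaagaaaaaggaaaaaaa

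The Hoxa5 sequence holds 1 match, a CCAAT on the minus strand, and 63.6% of its bases are G or C. The Hoxb8 sequence holds 7 matches, among them 3 TTTATNG and 2 TATAAA that overlap them, at 44.4% G and C. The Hoxd8 sequence holds 1 AGGTCA and 1 CCAAT, also at 44.4% G and C. In all, 21 members had 23 upstream windows. CCAAT was found in 13 of these 23 windows and in 33.9% of the 32851 windows of all genes, GGGCGG in 10 (32.7% of all), and AGGTCA in 6 (14% of all). TATAAA was found in 4 (12.4%), TTTATNG in 2 (9.81%) and TGATTNAT in 2 (2.83%). The window of Hoxc4, the one HOXC member with an entry, is not shown because all 250 bases lie in an exon of a longer Hoxc4 transcript.

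Classes were set by marker genes with at least 1 UMI (unique molecular identifier, 1 captured RNA molecule). Germ cells carried at least 3 of the 6 genes Dazl, Ddx4, Dnd1, Mael, Dppa5a and Mov10l1. Supporting cells, the precursors of granulosa cells, carried at least 3 of the 5 genes Fst, Wnt4, Wnt6, Irx3 and Runx1. Surface epithelium carried Upk3b with Krt19 or Krt7, interstitial cells Col1a1 with Tcf21, and endothelial cells Pecam1 with Cdh5. A cell that met more than 1 rule was left out, which applied to 1773 of 19387 cells, and 14097 cells fell in exactly 1 class. Germ cells numbered 227, 605, 721 and 2280, supporting cells 2149, 2131, 1718 and 642, and surface epithelial cells 604, 559, 393 and 336. Interstitial cells numbered 300, 209, 594 and 200, and endothelial cells 133, 174, 86 and 36. The 4 libraries held 69458291 to 80377418 UMIs, and the classes had a median of 9080 to 31019 UMIs per cell, highest in germ cells. Between libraries, 175 barcode sequences recurred, and cells were kept apart by library.

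For each library and class, the UMIs of a gene were added up and are given as counts-per-million (CPM) of all UMIs of that class. Each UMI is counted at the 3′ end of a transcript, so levels are not divided by transcript length. A level that is low may reflect fewer cells of a class with the RNA or less RNA in each cell, and shares of cells are given further on. Second marker lists were used to check the classes. The germ check list (5 genes such as Pou5f1 and Kit) summed to 762 to 1166 CPM in germ cells and at most 41.2 CPM in the other 4 classes, and the endothelial list (5 genes such as Kdr and Emcn) to 2189 to 2462 CPM against at most 55.8 CPM. The interstitial list (6 genes such as Pdgfra and Col3a1) summed to 842 to 2065 CPM in interstitial cells, and reached 595 CPM in surface epithelium. Supporting cells and surface epithelium were less distinct. The supporting check list (7 genes such as Wt1 and Lhx9) summed to 1259 to 1587 CPM in supporting cells and 1328 to 1596 CPM in surface epithelium. Foxl2, a granulosa lineage gene of that list, was at 0.345 CPM or less in supporting cells, too low to check the class, and the cause was not tested. The 5 genes of the surface check list summed to 188, 555, 946 and 1253 CPM in supporting cells and 162, 241, 406 and 966 CPM in surface epithelium, with Gng13 at up to 1145 CPM in supporting cells. Upk1b, in the same list, was at 27.1 CPM or more in surface epithelium and 2.57 CPM or less in supporting cells.

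All 37 members had UMIs somewhere in the table, and 16 reached at least 20 CPM in 1 class of at least 2 libraries. These were Hoxa5, Hoxa7, Hoxb4, Hoxb7, Hoxb8, Hoxb9, Hoxc4, Hoxc5, Hoxc6, Hoxc8, Hoxc9, Hoxc10, Hoxd4, Hoxd8, Hoxd9 and Hoxd10. For 11 of them the same class was highest in all 4 libraries. It was surface epithelium for Hoxd4, Hoxd8, Hoxd9 and Hoxd10, interstitial cells for Hoxc8, Hoxc9 and Hoxc10, and endothelial cells for Hoxb4, Hoxb7, Hoxb8 and Hoxb9. Germ cells and supporting cells were highest in all 4 libraries for 0 of the 16. The class with the highest level thus tended to be shared by genes of 1 cluster.

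**Figure D1:**
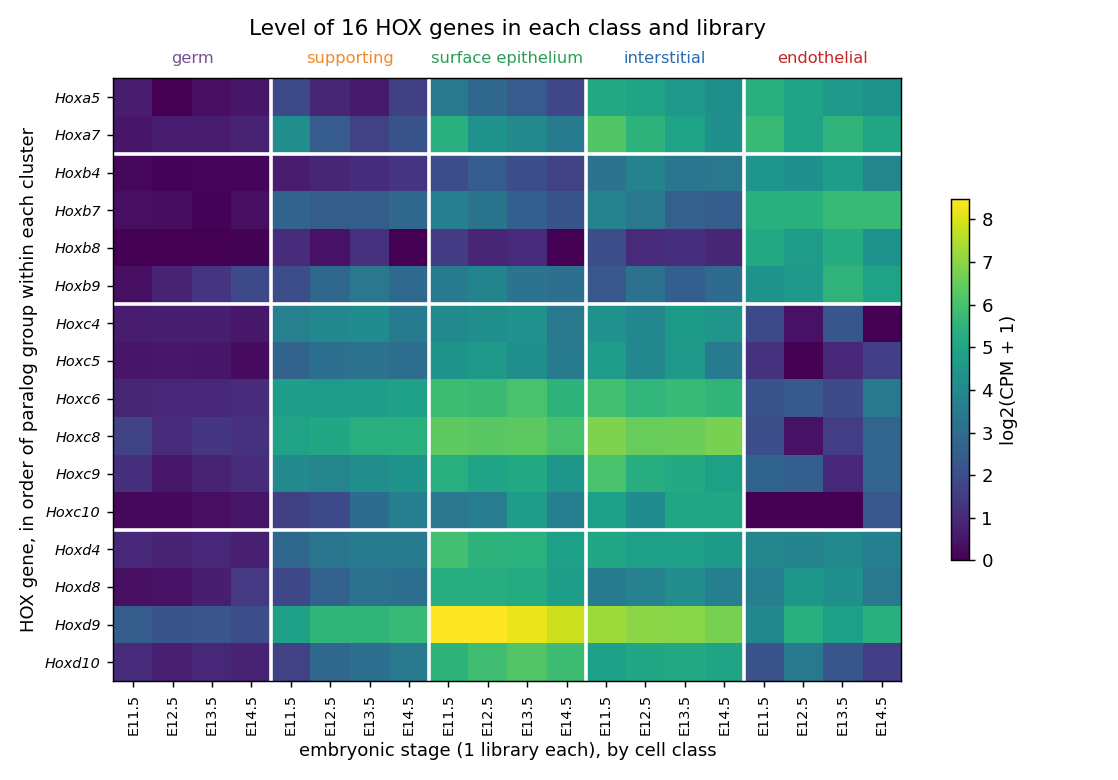
Level of the 16 HOX genes with at least 20 CPM in 1 class of at least 2 libraries (rows, by cluster and paralog group) in the 5 classes of the 4 libraries (columns), as log2(CPM + 1) of summed UMIs. HOXD genes are brightest in surface epithelium, HOXC genes in the interstitial and surface columns, and the HOXB genes in the endothelial columns, with Hoxa5 and Hoxa7 bright in both interstitial and endothelial columns, while the germ columns are dark throughout.

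Summed over all members, the HOX level was 824, 789, 767 and 544 CPM in surface epithelium and 744, 591, 621 and 533 CPM in interstitial cells. Endothelial cells followed with 355, 317, 361 and 310 CPM, and supporting cells with 165, 186, 210 and 229 CPM. Germ cells had 15.4, 12.51, 15.3 and 20.5 CPM. The order surface epithelium, interstitial, endothelial, supporting and germ held in each library, and at E14.5 the 95% counting intervals of surface epithelium and interstitial cells overlapped. Cells with at least 20% of their UMIs from globin genes (erythroid cells, 232 in all) gave a background for RNA that floats free in the droplets or comes from a second cell, and their HOX sum was 50.5, 100.5, 94.7 and 108 CPM. Those cells also held 54.8, 320.2, 321 and 249 CPM of the supporting rule genes. The germ sums lay below that background, and the other 4 classes above it.

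The make-up of the sum also differed. HOXD genes held 60.9%, 63.7%, 60.7% and 63.1% of the HOX UMIs in surface epithelium. In supporting cells HOXC genes held 53.9%, 51.7%, 53.8% and 51.5%, and in interstitial cells 41.3%, 37.2%, 41.8% and 45.9%. In endothelial cells HOXB genes held 44.1%, 40.7%, 53.9% and 41.1% and HOXA genes 39.2%, 29.9%, 25.7% and 29.1%, whereas HOXC genes held 4.55%, 3.06%, 2.88% and 8.86%. Paralog group 9 alone gave 45.7% to 50.9% of HOX UMIs in surface epithelium, through Hoxd9, and 28.3% to 32.0% in interstitial cells. HOXC was the largest cluster in supporting and interstitial cells in each library, HOXD in surface epithelium and HOXB in endothelial cells.

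**Figure D2:**
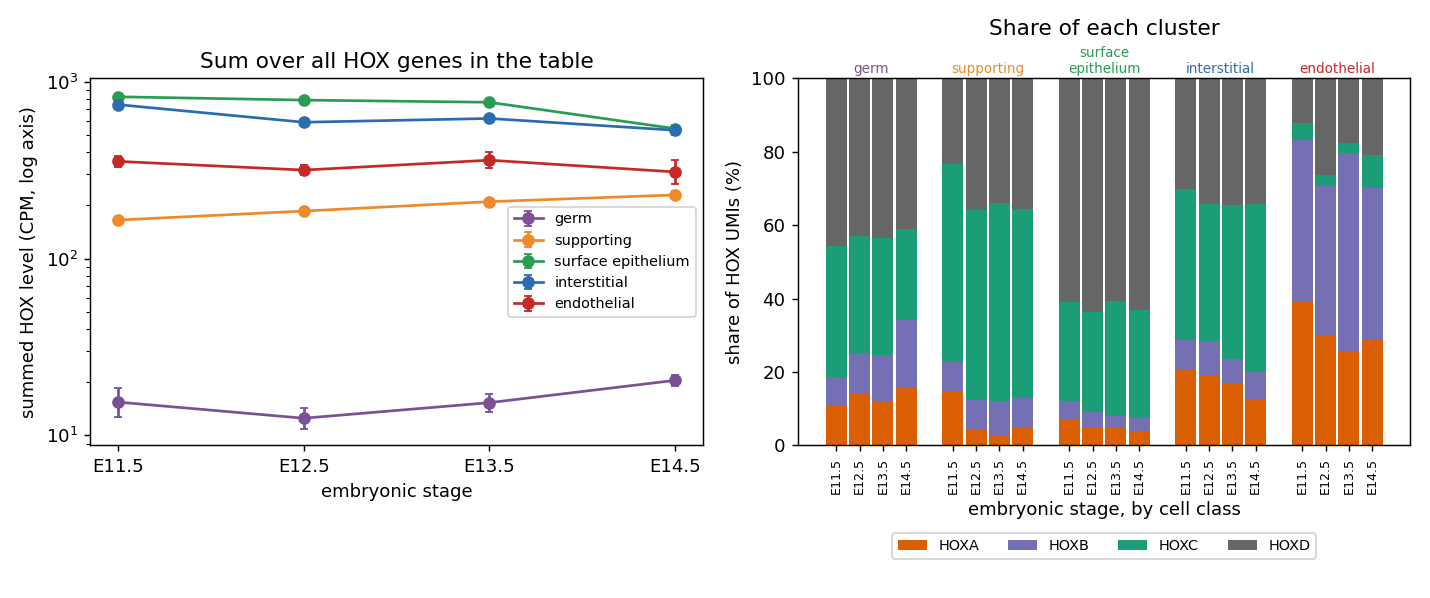
Left, the summed level of all 37 HOX genes (CPM, log axis) against embryonic stage for each class, with 95% Poisson intervals. Right, the share (%) of those UMIs from each cluster, in which HOXD takes over 60% of the bars of surface epithelium and HOXA with HOXB over 70% of the endothelial bars.

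Between surface epithelium and interstitial cells, the 4 HOXD genes tested were higher in the surface epithelium, while the 3 HOXA genes tested, with Hoxb4 and Hoxc10, were higher in the interstitium. Class sums were compared with limma on log2(CPM + 5), with the library as a block, over 10052 genes with a mean of at least 5 CPM, and p-values were adjusted over all of them. The 4 libraries are the 4 stages, so the error is a spread over stages. It is pooled over all 5 classes and moderated by limma, so it is not particular to the classes compared. The added 5 CPM makes fold differences of low genes smaller than the ratio of their levels. Of the 37 members 17 passed the filter and were tested, namely the 16 above and Hoxa9, and 20 did not pass it. Hoxb4 and Hoxb8 passed only through their endothelial levels, and 0 of the 17 had a mean of 5 CPM in germ cells, so all passed through somatic classes. Counts and medians over the 17 are therefore descriptions of the members that passed. In surface epithelium against interstitial cells 4 of the 17 were higher (background 10.2% of all genes tested) and 5 were lower (background 12.3%). The median difference was -0.14 over the 17 and -0.03 over all genes.

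Hoxd9 reached the highest level of all members. Paralogs of group 9 in the HOXA and HOXD clusters are known for their roles in limb and reproductive tract patterning. The gene (ENSMUSG00000043342.9) spans chr2:74697727-74700208. Its level was 356, 356, 300.2 and 225 CPM in surface epithelium and 149, 127, 126 and 106 CPM in interstitial cells, so that the 2 classes did not overlap. Supporting cells had 27.3, 45.9, 45.4 and 51.2 CPM, endothelial cells 14.4, 38.5, 26.4 and 41.2 CPM, and germ cells 4.69, 3.54, 3.68 and 3.00 CPM. Erythroid cells had 20.4, 38.8, 16.7 and 32.7 CPM of Hoxd9, so the endothelial values lie within the reach of that background. The supporting values lay above the erythroid value of the same library, by little at E11.5 and E12.5. Hoxd9 was 2.36-fold higher in surface epithelium than in interstitial cells (log2 difference 1.24, SE 0.22, limma adjusted p = 0.000388), and higher in 4 of 4 libraries.

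The 3 other HOXD members moved the same way. Hoxd8, a paralog group 8 gene, was at 37.6, 38.4, 36.4 and 25.8 CPM in surface epithelium and 10.2, 12.6, 16.7 and 11.7 CPM in interstitial cells (2.22-fold higher, adjusted p = 8.41e-05 by limma). Hoxd10, a group 10 gene with a part in hindlimb and spinal motor neuron patterning, was at 43.6, 58.1, 73.7 and 56.4 CPM against 26.9, 32.8, 35.0 and 29.7 CPM (1.73-fold, adjusted p = 0.00529). Hoxd4, a group 4 gene of the hindbrain and neck vertebrae, was at 61.4, 44.1, 41.6 and 26.9 CPM against 32.9, 26.8, 26.8 and 23.4 CPM (1.45-fold, adjusted p = 0.0191). The surface values of Hoxd8 and Hoxd10 all exceeded all interstitial values, whereas those of Hoxd4 overlapped. Without the E13.5 library the calls of Hoxd4 (log2 difference 0.54) and Hoxd10 (0.72) were lost, leaving 2 members, and without E12.5 that of Hoxd4 (0.51) was lost. Of the 2948 exonic bases of Hoxd4, 52.3% are shared with Hoxd3 or a further gene model on the same strand, so how reads were split between them could not be checked here.

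The 5 members lower in surface epithelium than in interstitial cells were Hoxa5, Hoxa7, Hoxa9, Hoxb4 and Hoxc10. Hoxa5, which patterns the neck and the lung mesenchyme, was at 9.73, 6.32, 4.42 and 2.50 CPM in surface epithelium and 34.4, 29.8, 22.6 and 17.5 CPM in interstitial cells (2.92-fold lower, adjusted p = 4.76e-07 by limma). Its values did not overlap between the classes. Hoxa9 was 2.09-fold lower (adjusted p = 0.00168), Hoxb4, known for its action in blood progenitors, 1.82-fold lower (adjusted p = 0.000126), Hoxa7 1.72-fold lower (adjusted p = 0.0276) and Hoxc10 1.68-fold lower (adjusted p = 0.0146). The calls of Hoxa7 and Hoxc10 were the less stable. Hoxa7 lost its call without the E12.5 library (log2 difference -0.71) and without E13.5 (-0.78), and Hoxc10 without E11.5 (-0.62). Hoxc4, Hoxc5, Hoxc6, Hoxc8 and Hoxc9 were not called, with differences of -0.39 to 0.08, and the 95% intervals reached from -0.77 to 0.44. Hoxb7 (-0.10) and Hoxb8 (-0.14) were not called either, nor was Hoxb9 (0.46, 95% interval 0.05 to 0.87, limma adjusted p = 0.0919), which was higher in surface epithelium in 4 of 4 libraries. At E11.5 the surface epithelial sum also held 114 CPM of the 6 immune markers, against 1.73 to 25 CPM at the later stages, and their part in the differences was not tested.

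**Figure D3:**
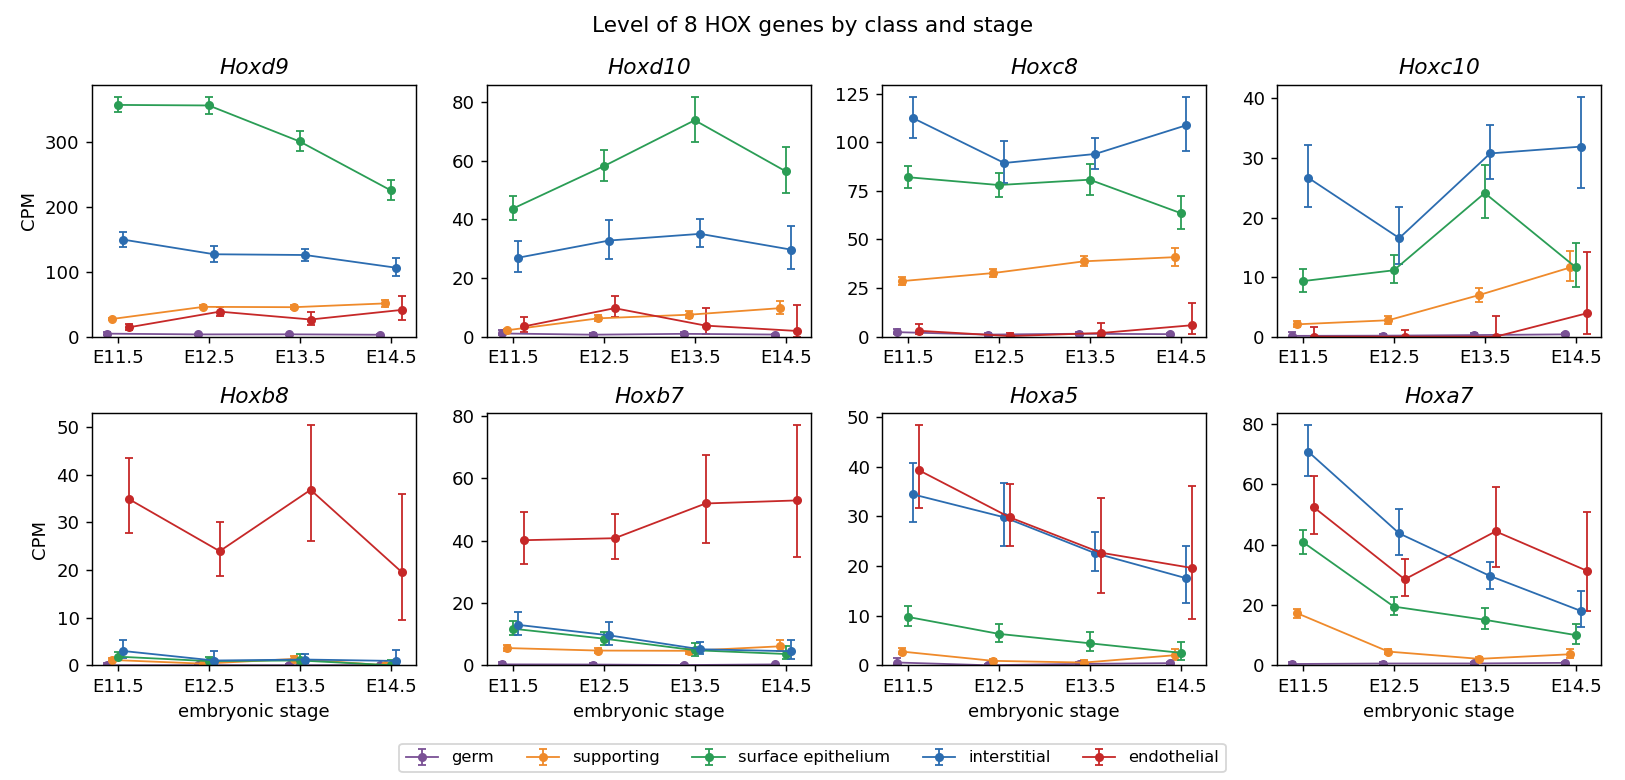
Level (CPM, linear axes from 0) of 8 HOX genes against embryonic stage in the 5 classes, with 95% Poisson intervals and points shifted sideways for legibility. Hoxd9 and Hoxd10 are highest in surface epithelium, Hoxc8 and Hoxc10 in interstitial cells, and Hoxb8 and Hoxb7 in endothelial cells, while Hoxa5 and Hoxa7 are high in both interstitial and endothelial cells and fall with stage in interstitial cells.

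All 6 HOXC genes tested were lower in supporting than in interstitial cells, and 5 of them, all but Hoxc4, were lower in supporting cells than in surface epithelium. Hoxc8, a group 8 gene of the thoracic region (ENSMUSG00000001657.7, chr15:102990607-102994111), was at 112, 89.4, 94.0 and 109 CPM in interstitial cells. Its surface epithelial levels of 82.0, 78.0, 80.8 and 63.6 CPM were all lower, and the supporting levels of 28.6, 32.7, 38.8 and 40.9 CPM lower again. Endothelial cells had 3.06, 0.324, 1.89 and 5.88 CPM, at or under the erythroid background of 3.22, 11.49, 24.1 and 17.4 CPM. Hoxc6 was at 59.3, 46.7, 53.0 and 45.4 CPM in interstitial cells, 56.2, 54.2, 64.5 and 43.6 CPM in surface epithelium, and 25.5, 25.1, 25.6 and 28.1 CPM in supporting cells. The interstitial and surface values of Hoxc6 overlapped, and both lay above the supporting values.

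Hoxc9, another group 9 gene, was at 65.5, 38.4, 35.5 and 27.4 CPM in interstitial cells and 39.5, 29.8, 35.0 and 21.4 CPM in surface epithelium, with 13.6 to 19.9 CPM in supporting cells. Hoxc10, which acts in the lumbar region, was at 26.7, 16.5, 30.8 and 31.9 CPM in interstitial cells, 9.33, 11.1, 24.1 and 11.7 CPM in surface epithelium and 2.08, 2.76, 7.0 and 11.6 CPM in supporting cells. In endothelial cells Hoxc10 had 0 UMIs in 3 libraries and 2 UMIs at E14.5. Hoxc4 and Hoxc5 were lower, at 14.6 to 23.4 CPM and 10.3 to 24.2 CPM in interstitial cells. Hoxc5 and Hoxc10 share 166 exonic bases on the same strand, so a few of their reads could be counted for either.

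Supporting cells had lower HOX levels than both neighbouring classes, and 0 members were higher in them. Against interstitial cells 14 of 17 members were lower in supporting cells (background 23.3% of all genes) and 0 were higher by limma (background 21%), also at an unadjusted p under 0.05 and with voom weights. The median difference was -1.22 over the members and -0.01 over all genes. Hoxa5 differed most, at 2.74, 0.883, 0.542 and 2.03 CPM in supporting cells (4.68-fold lower, adjusted p = 1.97e-09 by limma), followed by Hoxa7 (3.87-fold, adjusted p = 3.35e-06), Hoxd10 (3.25-fold, adjusted p = 8.87e-07) and Hoxc10 (3.01-fold, adjusted p = 6.92e-06). Hoxd9, Hoxa9, Hoxc8, Hoxb4, Hoxd4 and Hoxc9 were 2.09-fold to 2.82-fold lower, and Hoxc5, Hoxc6, Hoxd8 and Hoxc4 1.33-fold to 1.84-fold lower. All 14 were lower in 4 of 4 libraries, but the call of Hoxc4 (log2 difference -0.41) was lost without the E11.5 (-0.39), the E13.5 (-0.41) or the E14.5 library (-0.30). The 3 HOXB genes not called were Hoxb7 (-0.30, 95% interval -0.72 to 0.11), Hoxb8 (-0.19, -0.48 to 0.10) and Hoxb9 (0.04, -0.37 to 0.44).

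Against surface epithelium 12 of 17 members were lower in supporting cells (background 17.5%) and 0 higher by limma (background 19.1%), also at an unadjusted p under 0.05 and with voom weights, with a median of -0.84 over the members and 0.02 over all genes. The HOXD genes led this list. Hoxd9 was 6.66-fold lower (adjusted p = 4.48e-08 by limma), Hoxd10 5.61-fold (adjusted p = 2.31e-08), Hoxd8 3.69-fold (adjusted p = 2.32e-07) and Hoxd4 3.39-fold (adjusted p = 1.38e-07). Hoxa7, Hoxc8, Hoxc6, Hoxc5, Hoxc10, Hoxc9, Hoxa5 and Hoxb4 were 1.36-fold to 2.26-fold lower. Among these, Hoxb4 (log2 difference -0.44) lost its call without the E11.5 (-0.41), E12.5 (-0.35) or E13.5 library (-0.46), Hoxc9 (-0.74) without E11.5 (-0.61) or E12.5 (-0.68), and Hoxc10 (-0.84) without E12.5 (-0.77). Genes of the supporting rule were not at 0 in surface epithelium, where they summed to 84.0, 96.8, 198 and 383 CPM against 1350 to 1753 CPM in supporting cells. Genes of the surface rule summed to 21.8, 26.3, 36.1 and 61.1 CPM in supporting cells, and the part of these markers in the HOX differences was not tested.

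Cells that met the supporting and the surface rule together were set apart. They numbered 94, 206, 247 and 303, and their summed HOX level of 518, 566, 547 and 469 CPM lay between those of supporting cells and surface epithelium in each library. Their Hoxd9 level was 195, 252, 226 and 179 CPM and their Hoxc8 level 58.9, 63.1, 59.9 and 56.5 CPM. These cells had a median of 10729 to 19058 UMIs, above the 9423.5 to 13865 UMIs of supporting cells at each stage, and how many are doublets was not tested.

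Endothelial cells had another set of HOX genes, with the tested HOXA and HOXB members high and HOXC members near background. Against the mean of supporting, surface epithelial and interstitial cells, 7 of 17 members were higher (background 23.1% of all genes) and 9 were lower (background 33.8%). The median was -0.58 over the members and -0.09 over all genes. The 7 were Hoxa5, Hoxa7, Hoxa9, Hoxb4, Hoxb7, Hoxb8 and Hoxb9, which are all of the HOXA and HOXB members tested. Since Hoxb4 and Hoxb8 passed the filter only through their endothelial levels, this count describes the members that passed and is no test of the set. The 9 were the 6 HOXC members with Hoxd4, Hoxd9 and Hoxd10, while Hoxd8 had a difference of 0.01 (95% interval -0.30 to 0.33). Without the filter, limma also called Hoxa3, Hoxb5 and Hoxb6 higher. The remaining HOXA and HOXB members were not called, among them Hoxa10 (log2 difference -0.32), Hoxb2 (0.30) and Hoxb3 (-0.04). In that fit 8242 of all 19271 genes were called in either direction.

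Hoxb8 (ENSMUSG00000056648.5, chr11:96281905-96285315), a gene with known roles in spinal and blood lineages, showed the sharpest endothelial pattern. Its level was 34.9, 24, 36.8 and 19.6 CPM in endothelial cells, on 80, 74, 39 and 10 UMIs. In the 4 other classes it was at most 2.99 CPM, and erythroid cells had 0 UMIs of it in all libraries. The difference was 5.51-fold (log2 2.46). Since Hoxb8 passed the filter only through this class, the limma value without the filter is the one to read (log2 2.46, SE 0.09, adjusted p = 1.82e-11). Hoxb7, its neighbour in the cluster, was at 40.1, 40.8, 51.9 and 52.9 CPM against at most 13 CPM in the other classes (4.45-fold, adjusted p = 9.13e-10). Hoxb9 was at 19.6, 23.0, 44.4 and 29.4 CPM against at most 13.1 CPM (2.73-fold, adjusted p = 1.77e-07), and Hoxb4 at 20.9, 18.1, 25.5 and 13.7 CPM against at most 12.9 CPM (2.69-fold, limma adjusted p = 5.68e-08 without the filter, which Hoxb4 passed only through this class). For these 4 HOXB genes the endothelial value was above every other class in each library.

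The tested HOXA genes were shared with the interstitium. Hoxa5 was at 39.3, 29.8, 22.7 and 19.6 CPM in endothelial cells, next to 34.4, 29.8, 22.6 and 17.5 CPM in interstitial cells, and the counting intervals of the 2 classes overlapped at each stage. It was 2.52-fold higher than the mean of the 3 classes (adjusted p = 3.93e-08 by limma). Hoxa7 was at 52.4, 28.5, 44.4 and 31.4 CPM (1.96-fold higher, adjusted p = 0.000445), below the interstitial level at E11.5 and E12.5 and above it at E13.5 and E14.5. Hoxa9 was at 31.0, 15.9, 7.56 and 19.6 CPM in endothelial cells and 19.4, 9.6, 19.7 and 10.8 CPM in interstitial cells (2.05-fold above the mean of the 3, adjusted p = 9.59e-05). Of the noncoding genes of the HOXA cluster, Hoxaas3 lies antisense to Hoxa7 and had 14, 19.4, 28.3 and 19.6 CPM in endothelial cells and at most 3.25 CPM in the other 4 classes. The chemistry keeps the strand, but whether the counting used it is not given in the sources used here, so reads of Hoxa7 and Hoxaas3 may not be fully separated.

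Among the members that were lower, Hoxc8 differed most (9.28-fold lower than the mean of the 3 classes, adjusted p = 1.87e-13 by limma), followed by Hoxc6 (4.80-fold, adjusted p = 5.69e-11), Hoxd9 (3.71-fold, adjusted p = 5.31e-08) and Hoxc9 (3.58-fold, adjusted p = 2.15e-08). Hoxc4, Hoxd10, Hoxc10 and Hoxc5 were 3.01-fold to 3.17-fold lower and Hoxd4 1.5-fold lower. The endothelial class holds few cells, and its 4 sums held 510260 to 3089555 UMIs. Its sums also held 174, 105, 91.6 and 39.2 CPM of the 5 neural markers (such as Stmn2), against at most 24.3 CPM in the other 4 classes, and 78.4 CPM of the 6 immune markers at E14.5. The part of those cells in the HOX differences was not tested.

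**Figure D4:**
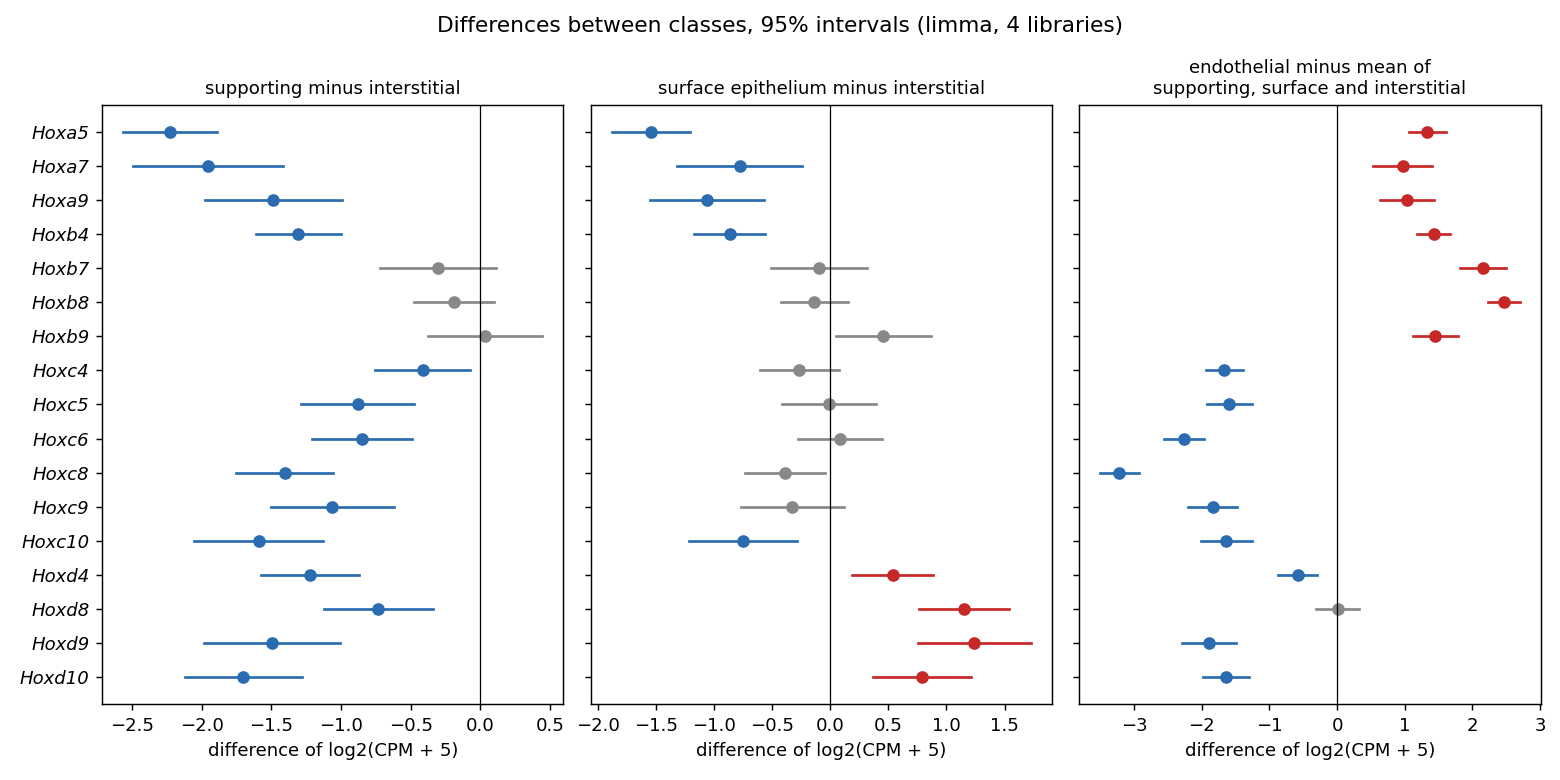
Difference of log2(CPM + 5) between classes for the 17 HOX genes tested over 4 libraries (red, higher, blue, lower, grey, not called at an adjusted p of 0.05). The 95% intervals use limma's moderated SE with the residual degrees of freedom. Called differences lie left of 0 for 14 genes in supporting against interstitial cells, right of 0 for 4 HOXD genes in surface epithelium against interstitial cells, and right of 0 for the HOXA and HOXB genes and left for the HOXC genes in endothelial cells.

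Germ cells had low levels of all members tested. Against the mean of the 4 somatic classes 17 of 17 members were lower (background 47.7% of all genes), each in 4 of 4 libraries. All 17 passed the filter through somatic classes, with germ means under 5 CPM. The count therefore describes these members and is no test of the set. None was higher by limma (background 29.3%), with 0 also at an unadjusted p under 0.05 and with voom weights. The median was -1.68 over the members and -0.21 over all genes. With the sums scaled by median-of-ratios the median of all genes moved from -0.21 to 1e-04, and 17 members were lower there too. Hoxd9 differed most (10.2-fold lower, adjusted p = 6.17e-12 by limma), then Hoxc8 (6.11-fold, adjusted p = 1.79e-12) and Hoxc6 (5.30-fold, adjusted p = 8.45e-12). Hoxb8, which passed the filter only through endothelial cells, differed least (1.84-fold, limma adjusted p = 6.5e-07 without the filter). The germ level of Hoxd9, 3.00 to 4.69 CPM, lay below the erythroid level of 16.7 CPM or more in each library, and free RNA cannot be told apart from expression there. Markers of the supporting rule, which germ cells should lack, summed to 20.1 to 26.0 CPM there.

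A few members with very few UMIs had most of them in germ cells. Hoxd1 had 0, 0, 4 and 79 UMIs in germ cells (2.08 CPM at E14.5), out of 90 UMIs in the 5 classes, and erythroid cells held 1. The group 13 genes act at the tail end of the body axis, and all but 1 of their UMIs in the 5 classes lay in germ cells. Hoxc13 had 0, 4, 6 and 19 UMIs in germ cells, Hoxb13 had 0, 2, 0 and 16 and Hoxa13 had 0, 0, 1 and 12, with 1 further UMI of Hoxa13 in supporting cells. Hoxd13 had 0 UMIs in the 5 classes. At E14.5 the germ class had 38022616 UMIs, and the somatic classes between 510260 and 7403162. The limit that 0 UMIs allows (3 counts) was 0.405 CPM in supporting cells at E14.5, 0.833 CPM in surface epithelium, 1.35 CPM in interstitial cells and 5.88 CPM in endothelial cells. The germ level of Hoxc13 there, 0.5 CPM, is above the first of these limits and under the others, and its lower counting bound of 0.301 CPM is under the limit of each class taken alone. Without the filter on low values, limma called Hoxb13 and Hoxc13 higher in germ cells, with log2 differences of 0.04 and 0.07. These genes were singled out after their values were seen.

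Shares of cells with a UMI were compared next. To equalise depth, 5000 UMIs were drawn at random from each cell. A Hoxd9 UMI was then found in 75.5%, 75.5%, 70.5% and 62.8% of surface epithelial cells, 40.0%, 42.6%, 44.3% and 34.5% of interstitial cells and 9.91%, 16.6%, 16.4% and 20.1% of supporting cells. Endothelial cells had 5.26%, 14.4%, 15.1% and 16.7% and germ cells 2.2%, 0.661%, 1.80% and 1.45%, with erythroid cells at 5.26%, 8%, 5% and 9.78%. The germ shares of Hoxd9 lay below the erythroid shares at each stage, and free RNA cannot be told apart from expression there. The erythroid shares at E12.5 and E13.5 rest on only 25 and 20 cells. Without thinning, at a median of 13012 UMIs in surface epithelium, 11899.5 in supporting cells and 22643.5 in erythroid cells, the shares over all libraries were 90.8%, 28.4% and 19.0% in that order. A Hoxb8 UMI was found in 13.53%, 12.1%, 16.3% and 11.1% of endothelial cells, at most 2% of the cells of the other 4 classes, and 0 of 232 erythroid cells, which allows a share of up to 1.29%.

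Single cells carried several HOX genes together where the class level was high. After thinning, surface epithelial cells had a mean of 2.57 HOX genes with a UMI and interstitial cells 2.49. Endothelial cells had a mean of 1.49, supporting cells 0.819, erythroid cells 0.319 and germ cells 0.0895. In 5.34% of surface epithelial and 8.14% of interstitial cells there was no HOX UMI, as opposed to 23.1% of endothelial, 45.4% of supporting and 92.0% of germ cells. In supporting cells the mean was 0.706, 0.784, 0.908 and 1.07 over the stages, and in surface epithelium 2.80, 2.62, 2.62 and 2.02. The erythroid mean was 0.168, 0.32, 0.45 and 0.446, and the part of that background in the supporting values was not tested. Of the 37 members, 23 were found in at least 5% of the thinned cells of at least 1 class in 1 library.

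The remaining members did not reach 20 CPM in 2 libraries. Hoxa9 did so in 1 library, with 31.0 CPM in endothelial cells at E11.5. Hoxa10 peaked at 19.1 CPM, Hoxd11 at 12.1 CPM in surface epithelium, and Hoxb2 and Hoxb5 at 17.4 and 17.9 CPM in interstitial and endothelial cells. Hoxd11, which patterns the forearm and kidney region, was at 0.602, 4.46, 12.1 and 7.22 CPM in surface epithelium and 2.49, 1.32, 9.57 and 9.44 CPM in interstitial cells, and had 0 UMIs in endothelial cells. Hoxb2, a hindbrain gene, was at 17.4, 14.2, 14 and 6.74 CPM in interstitial cells and at most 2.01 CPM in surface epithelium. Hoxb1, Hoxa11, Hoxc11 and the group 13 genes did not exceed 1 CPM in any class and library.

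The cofactors of HOX proteins are given beside the background shares of all genes in the same comparison. Of the 9 PBX, MEIS and PKNOX genes listed, 8 were tested. In germ cells 7 of 8 were lower than in the somatic mean (background 47.7%) and Pbx2 was higher (background 29.3%). In interstitial cells they summed to 742 to 877 CPM, above the other 4 classes in each library, where the sum was at most 472 CPM. Against interstitial cells 5 of 8 were lower in supporting cells (background 23.3%) and 6 of 8 in surface epithelium (background 12.3%), with Meis2 at a log2 difference of -1.32 in surface epithelium (limma adjusted p = 7.2e-07). Between supporting cells and surface epithelium 3 were higher (Pbx2, Pbx3 and Meis3, background 19.1%) and 3 lower (Meis1, Meis2 and Pknox1, background 17.5%) in supporting cells. In endothelial cells 6 of 8 were lower than in the mean of the 3 classes (background 33.8%), among them Meis1 (log2 difference -2.74).

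Of 21 trithorax and polycomb genes, the chromatin regulators of the clusters, 20 were tested, and 8 were higher (background 29.3%) and 7 lower (background 47.7%) in germ cells. Ezh2, the polycomb enzyme that methylates histone H3, and Phc1, a polycomb subunit (log2 difference 1.17), were among the higher ones. In surface epithelium against interstitial cells, the contrast in which HOXD genes were higher, 1 of 20 passed (Cbx2, higher, 0.48, background 10.2%). In supporting against interstitial cells 4 were higher (background 21%) and 4 lower (background 23.3%), shares near those of all genes. In endothelial cells 7 were lower (background 33.8%), and in supporting cells against surface epithelium 4 were higher (background 19.1%) and 3 lower (background 17.5%). Of the 6 upstream axial factors 1 was tested. This gene, Cdx2, which activates HOX genes in the early embryo, passed the filter only through its germ cell levels, so no test is given. It was at 10.6, 17.5, 36.6 and 36.5 CPM in germ cells and at most 0.81 CPM in the somatic classes. Of 7 noncoding genes of the clusters 2 were tested, Hoxd3os1 and Hotairm1. Both were lower in germ cells (background 47.7%) and in supporting against interstitial cells (background 23.3%). Hotairm1 was also lower in surface epithelium against interstitial cells (background 12.3%) and higher in endothelial cells (log2 difference 1.06, background 23.1%). Neither was called between supporting cells and surface epithelium.

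Between E11.5 and E14.5, the members past a rule of size were lower at the later stage in surface epithelium and interstitial cells. Some members below the minimum level of that rule were higher, such as Hoxd11 in both classes and Hoxc10 in supporting cells. With 1 library per stage there is no replicate check and no test, and stage and library cannot be told apart. To be named, a gene needed 50 or more UMIs over both libraries, a level of 20 CPM or more at one stage, a 2-fold ratio or more, and counting intervals that did not overlap. In surface epithelium 2 of 8 members with enough UMIs were past this rule and lower (background 1.8% of all such genes) and 0 higher (background 5.12%), and in interstitial cells 3 of 11 were lower (background 3.33%) and 0 higher (background 4.02%). In supporting cells 0 of 3 members were past it in either direction (background 5.97% higher and 3.23% lower). In endothelial cells 1 of 8 was higher (background 2.63%) and 0 lower (background 2.96%), and in germ cells 0 members had enough UMIs (background 22.5% higher and 8.42% lower).

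Hoxa7 (ENSMUSG00000038236.8, chr6:52214491-52221854), a thoracic group 7 gene, was lower at E14.5 in both classes. It had 40.8, 19.4, 15.1 and 9.99 CPM in surface epithelium (4.08-fold lower at E14.5, log2 ratio -2.03, 95% counting interval -2.56 to -1.54). In interstitial cells it had 70.8, 43.7, 29.6 and 18.0 CPM (3.94-fold lower, log2 ratio -1.98). The level was lower at each later stage in both classes. Supporting cells held 17.2, 4.53, 2.12 and 3.65 CPM of Hoxa7, which is below the minimum of the rule. Over the same stages endothelial cells had 52.4 and 31.4 CPM at the ends, a log2 ratio of -0.74 with an interval of -1.59 to 0.02.

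Hoxd4 was 2.28-fold lower in surface epithelium at E14.5 (log2 ratio -1.19), and Hoxc9 and Hoxc5 were 2.39-fold and 2.34-fold lower in interstitial cells (-1.26 and -1.23). Some members under the minimum level had larger ratios. Hoxd11 went from 0.602 to 7.22 CPM in surface epithelium, on 6 and 26 UMIs (log2 ratio 3.58, 95% counting interval 2.27 to 5.16), and from 2.49 to 9.44 CPM in interstitial cells, on 10 and 21 UMIs (1.92, interval 0.77 to 3.17). Hoxc10 in supporting cells went from 2.08 to 11.6 CPM (log2 ratio 2.48). Hoxd10 (2.14), Hoxd8 (1.57) and Hoxd11 (3.42, on 6 and 15 UMIs) were also higher there, whereas Hoxa7 was lower (-2.24). In surface epithelium Hoxa5 had a log2 ratio of -1.96 and Hoxb7 of -1.70. Hoxc8 and Hoxd10 were closer between the 2 stages. Hoxc8 in interstitial cells had a log2 ratio of -0.05 with an interval of -0.28 to 0.18, and Hoxd10 in surface epithelium 0.37. Hoxd9 went in different directions by class. It was 1.58-fold lower at E14.5 in surface epithelium (log2 ratio -0.66) and 1.88-fold higher in supporting cells (0.91), both short of the ratio of 2. In endothelial cells Hoxd9 was 2.86-fold higher (1.51), on 33 and 21 UMIs, at levels that erythroid cells also reached. With stricter class rules, or without the 5% of cells with most UMIs, 0 endothelial members were past the rule. Over the same stages the supporting rule genes in surface epithelium went from 84.0 to 383 CPM, and their part in the stage differences was not tested.

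**Figure D5:**
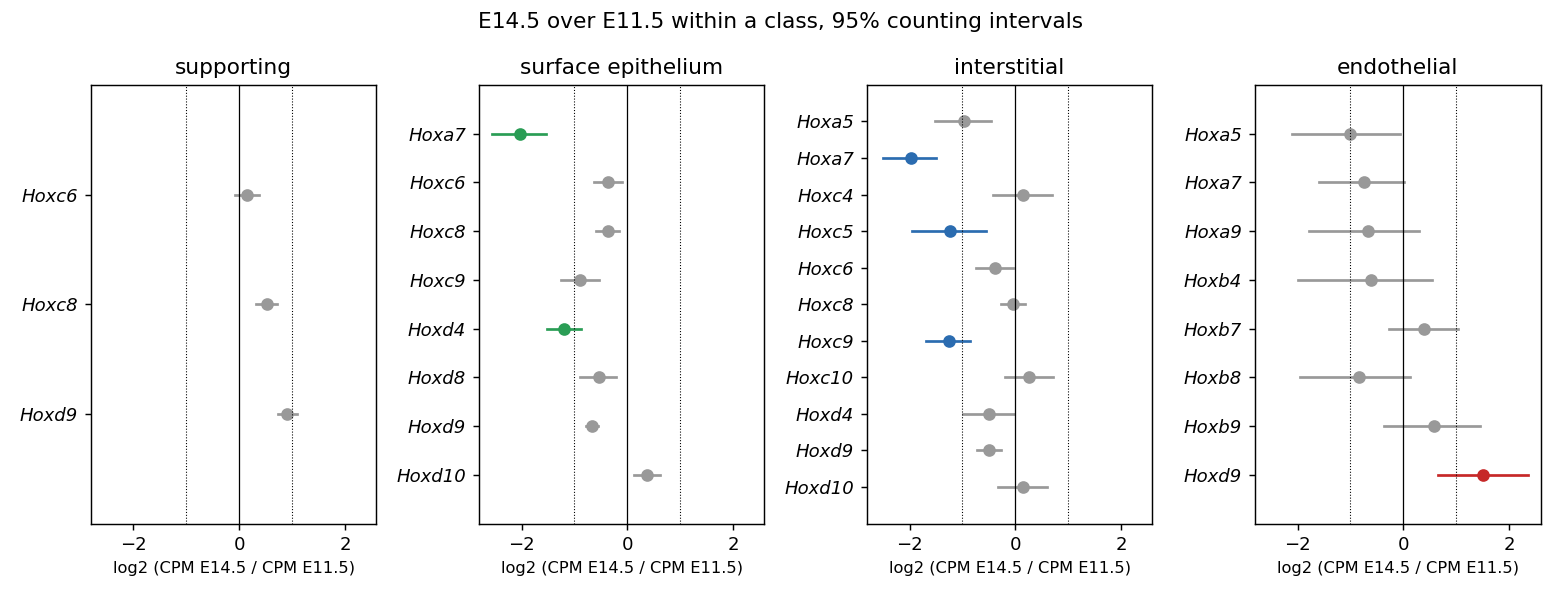
Log2 ratio of CPM at E14.5 over E11.5, with 95% counting intervals, for HOX genes with at least 50 UMIs over both libraries and 20 CPM in the higher, in 4 classes. Coloured points are past the ratio of 2 (dotted lines) with intervals that do not overlap: Hoxa7 and Hoxd4 in surface epithelium, Hoxa7, Hoxc5 and Hoxc9 in interstitial cells, and Hoxd9 in endothelial cells.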

How the data were processed

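The deposited table holds, as read from its values, the natural log of 1 plus each gene's UMIs divided by the cell's total and multiplied by 10000. Cell Ranger 2.2.0 and the mouse build mm10 are named in the submitters' processing notes. The filters on cells and genes, the normalization tool and whether the counting used strand are not given in the sources used here. UMIs were recovered from these values, and 100% of 69792436 values above 0 were whole multiples of 1 UMI (relative tolerance 1e-06). Because the deposited unit is a natural log, a count test was not used, although the design allowed one for raw counts.

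Cells with over 20% mitochondrial UMIs (5 cells) were left out, and no doublet caller was run. UMIs were summed per class and library into 20 sums and tested with limma 3.58.1 (trend option, R 4.3.3) on log2(CPM + 5) with the library as a block, Benjamini-Hochberg adjustment over 10052 genes with a mean of at least 5 CPM, and a threshold of 0.05. Each class of a library is 1 value, and p-values rest on a spread over the 4 stages that is pooled over all 5 classes. The 95% intervals of class differences use limma's SE with the residual degrees of freedom, while the p-values use limma's moderated degrees of freedom. Counting intervals are exact Poisson intervals at 95%, cover counting error only, and limits of 0 use 3 counts. On simulated sums for supporting against interstitial cells, the test found 73.7% of 198 genes changed 2-fold (9981 genes in the step) and 100% of 195 changed 4-fold (9988 genes in the step). The simulated classes shared 1 profile apart from the genes changed in supporting cells, with a fixed spread and no library effect. These rates therefore need not hold for the real sums. Thinning used seed 1.

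Members are described with values when they reach 20 CPM in 1 class of at least 2 libraries, and side list genes by counts. The members, classes and lists were chosen with earlier results of these data known. Positions are from GENCODE M21 (GRCm38), and promoters from RefSeq. Alternatives covered the pseudocount, the filter, voom weights, median-of-ratios scaling, the library block, the class rules, cells of high UMI count, cell scaling and each library left out.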

Additional observations from a re-analysis of the deposited data

Results flagged for a closer look

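Hoxd9, among other members, went in opposite directions between stages in different classes, with 1 library per stage and no test of the difference. Its level at E14.5 over E11.5 had a log2 ratio of -0.66 in surface epithelium (from 356 to 225 CPM), 0.91 in supporting cells (from 27.3 to 51.2 CPM) and 1.51 in endothelial cells (from 14.4 to 41.2 CPM). The counting interval was -0.77 to -0.55 in surface epithelium, 0.73 to 1.08 in supporting cells and 0.65 to 2.35 in endothelial cells. With stricter class rules, or without the 5% of cells with most UMIs, the endothelial ratio was no longer past the rule of size. The erythroid level of Hoxd9 was 20.4 CPM at the first stage and 32.7 CPM at the last. Genes of the supporting rule in surface epithelium moved over the same stages from 84.0 to 383 CPM, and genes of the surface rule in supporting cells from 21.8 to 61.1 CPM, and the part of these in the Hoxd9 ratios was not tested. Hoxd4, Hoxd8 and Hoxc8 were also lower at E14.5 in surface epithelium (log2 ratios -1.19, -0.54 and -0.37). In supporting cells they were higher (0.73, 1.57 and 0.52), with Hoxd4 and Hoxd8 under 20 CPM there. Not all members did so, as Hoxa7 was lower in both classes and Hoxd10 higher in both.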

How the results depend on the processing

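No called member changed direction under any alternative tried. Median-of-ratios scaling, a fit on only the classes compared and leaving out the 5% of cells with most UMIs each kept 68 of 68 calls, and the other settings kept 63 to 67 (64 of 66 with cells of several classes kept). Without the filter on low values more members were tested. Members higher in germ cells then numbered 2 (Hoxb13 at a log2 difference of 0.04 and Hoxc13 at 0.07) and members lower in germ cells 27. Members lower in supporting against interstitial cells numbered 23 and members lower in surface epithelium against interstitial cells 10. In these contrasts, in that order, 11227, 6089 and 3026 of all 19271 genes were called in either direction. Against interstitial cells, Hoxc4 lost its call in supporting cells and Hoxa7 in surface epithelium. With the filter, members lower in surface epithelium against interstitial cells numbered 3 with a pseudocount of 1 CPM and 3 with no library block. With each library left out in turn, members higher in surface epithelium against interstitial cells numbered 2 to 4, with 2 when E13.5 was left out, and members lower 4 to 6. Past the stage rule in supporting cells there was 1 member with cells of several classes kept, with stricter class rules, without the 5% of cells with most UMIs and with each cell scaled to the same total. In surface epithelium it was 1 with stricter class rules. In endothelial cells it was 2 with cells of several classes kept, 0 with stricter class rules and 0 without the 5% of cells with most UMIs. The cause of these changes was not tested. No paired analysis was possible because each stage has 1 library, and the library already stands as a block in the comparison of classes. Depth limits the endothelial sums at E14.5 (510260 UMIs, where 3 counts are 5.88 CPM) and the members under 20 CPM.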
